A study of Arabidopsis thaliana with 3 samples.

Results

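The genes described are 10 genes of aliphatic glucosinolate synthesis in Arabidopsis thaliana, chosen by name and locus code out of the 30271 genes in the deposited tables. They are the regulators MYB28 and MYB29, the chain elongation genes BCAT4 and MAM1, the core synthesis genes CYP79F1, CYP79F2, CYP83A1, SOT17 and SOT18, and the side chain gene FMOGS-OX1. All 10 were present in both tables, and all 10 passed the filter on low values (3 or more of the 9 libraries with a normalized count of 10 or higher). MYB29 and FMOGS-OX1 reached that value in at most 2 of the 3 WT libraries, so they passed through the mutant libraries.

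RNA was measured by sequencing stranded libraries, depleted of ribosomal RNA, from seedlings aged 9 days, with 3 libraries in each of 3 groups. T34 and T12 are populations that carry the mutant alleles gip1 (GABI_213D01) and, from the other parent of the cross, gip2 (FLAG_36406). T34 is read here as the population with the more severe root phenotype, from the order in which the design text names them. The reference is WT, which is itself a Ws x Col-0 cross. Both genes code for small subunits of the gamma-tubulin complexes, from which microtubules grow. As background, GABI lines were raised in the accession Col-0 and FLAG lines in Ws. The share of each accession's alleles at the 10 loci is not given for any group, so a difference in those shares and an effect of the mutations cannot be told apart. The labels call the replicates individual and add nothing on their culture, so the spread behind each p-value is that between these libraries and may be technical.

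Glucosinolates are sulfur-rich defence compounds of the cabbage order, held apart from the enzyme myrosinase until tissue is damaged. Aliphatic ones start from methionine. BCAT4 removes its amino group, MAM enzymes lengthen the chain, CYP79F and CYP83A1 oxidise the amino acid to an activated aldoxime product, further enzymes add sulfur and glucose, and the sulfotransferases SOT17 and SOT18 complete the core. FMOGS-OX enzymes then oxidise the sulfur of the side chain. MYB28 and MYB29 are transcription factors of the R2R3 class that switch these genes on, acting together with bHLH proteins of the MYC class.

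The libraries held 20963358 to 30438933 reads. Nuclear genes without ribosomal RNA took 10051980 to 11315810 reads in T34, 13118044 to 15267105 in T12, and 12334250, 644970 and 6281401 in WT replicates 1, 2 and 3. Ribosomal RNA took 49.4, 45 and 46.5% of reads in T34, 1.78, 0.964 and 0.995% in T12, and 22.5, 95.7 and 49.1% in WT. WT replicate 2 was thus the shallow library, in which 1 read was worth 11.69 normalized counts (0.5608 to 1.275 elsewhere) and all 10 genes together had 134 reads. In the labels the seventh library stands under WT and again under T34, and the sixth is missing, and they were used as WT replicate 1 and T34 replicate 3 because of the tables their columns stand in. GIP2 had 5 reads or fewer in every library and so gives no check of the labels, and GIP1 is not analysed here.

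In T34 seedlings 8 of the 10 genes rose against WT, and in T12 seedlings 9 of 10 rose against WT, while none fell in either comparison. A gene was called when limma's Benjamini-Hochberg adjusted p over all 20871 tested genes was under 0.05. Of all tested genes 25.2% were called higher and 20.0% lower in T34, and 23.1% higher and 17.0% lower in T12. The median log2 fold change of the 10 genes was 2.13 in T34 and 2.78 in T12, where the median of all tested genes was 0.06 in both comparisons. MYB28 was called in neither comparison and MYB29 only in T12. Every T34 library lay above every WT library for 9 of the 10 genes (30.9% of all tested genes did so), and every T12 library lay above every WT library for 9 of 10 as well (28.3% of all tested genes). These counts and medians include MYB29 and FMOGS-OX1, which passed the filter through the mutant libraries and had 0 reads in WT replicate 2. A count of 0 there allows up to 35.1 normalized counts, which is above every T34 value of MYB29. Both comparisons use the same WT libraries. The counts without WT replicate 2 were 9 for T34 and 9 for T12, and without the libraries of conflicting labels they were 8 for T34 and 9 for T12.

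**Figure D1:**
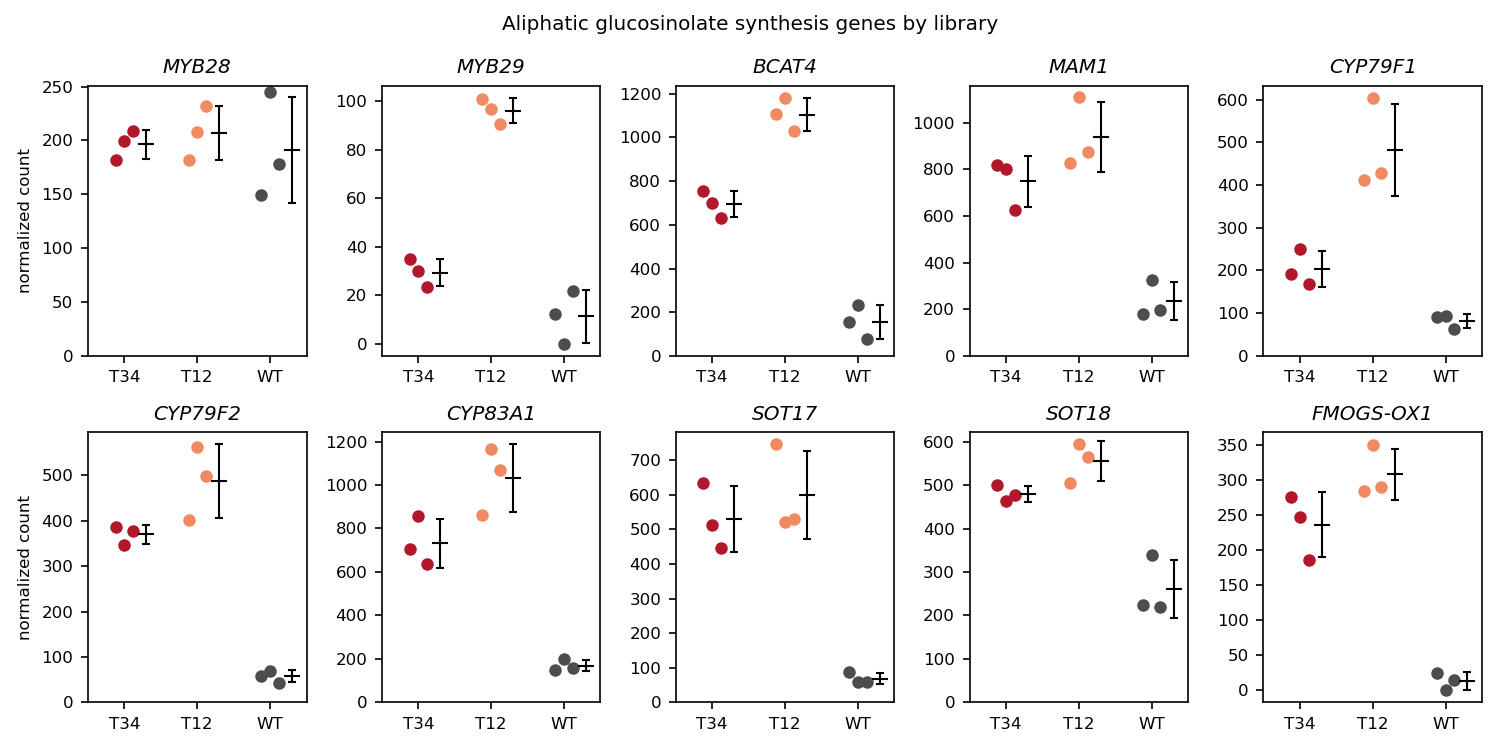
Normalized count (vertical axes, each with its own range) of the 10 genes in the T34, T12 and WT libraries, 3 per group, with the mean and SD beside the points. For all genes but MYB28 the WT libraries lie below both mutant groups, and WT averaged 57.5 for CYP79F2 against 370.1 in T34 and 486.8 in T12.

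The summed normalized counts of the 10 genes were 4483, 4403 and 3775 in T34, 5424, 6391 and 5606 in T12, and 1132, 1566 and 1036 in WT. The groups did not overlap in this sum, with T12 highest and WT lowest. Fewer cells of a type and less RNA per cell cannot be told apart in these whole-seedling libraries.

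Sums of markers of other cells differed between some groups and overlapped between others. The summed normalized count of 8 root markers ranged over 674.5 to 744.1 in T34, 692.2 to 888.9 in T12 and 739.2 to 1205 in WT, and that of 4 leaf mesophyll markers over 28070 to 34220 in T34, 60530 to 66380 in T12 and 50480 to 83920 in WT. Roots and leaves were thus both present in all groups, as the seedling label says. The myrosinase genes TGG1 and TGG2, which mark myrosin cells, summed to 3324 to 4216 in T34, 5725 to 8171 in T12 and 8172 to 10840 in WT. The sum of 3 stomatal markers was 40.34 to 62.47 in T34, 79.07 to 158.6 in T12 and 126.5 to 292.2 in WT, with MUTE at 0 in WT replicate 2. The 4 seed storage and oil body markers summed to 11740 to 29020 in T34, 2167 to 5555 in T12 and 56.08 to 5259 in WT. Single root markers went in different directions. CASP1, CASP2 and CASP5, of the Casparian strip, fell in both T34 and T12 against WT. WOX5, of the root stem cell niche, averaged 14.84 in T34, 34.49 in T12 and 9.311 in WT. It rose in T12 (log2 1.67, limma adjusted p = 0.0105). WOX5 had 14, 1 and 6 reads in WT replicates 1, 2 and 3, and passed the filter on low values through the mutant libraries. The single read of WT replicate 2 equals 11.69 normalized counts, so the WT level behind this call rests on few reads. The root, leaf, stomatal and seed sums of T12 and WT overlapped, and the root sums of T34 overlapped those of T12 and of WT. Within the leaf list, RBCS3B rose in T12 (log2 0.67, limma adjusted p = 0.0127) and LHCA1 fell (-0.55, 0.0311). RBCS1A and LHCB1.1 were not called there. In T34, RBCS1A, RBCS3B and LHCA1 fell and LHCB1.1 was not called. The part of cell makeup, of ribosomal RNA share and of depth in the results was not tested.

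The regulators came apart from each other. MYB28 (AT5G61420, chr5:24689069-24691187, minus strand; coordinates here and below are those of the RefSeq annotation on TAIR10.1) had 181.9, 199.5 and 208.5 normalized counts in T34, 182, 207.8 and 232.2 in T12, and 149.2, 245.4 and 178.4 in WT. The 3 groups overlapped, and WT held both the lowest and the highest library. The highest, WT replicate 2, rests on 21 reads, and the other WT values lay below every T34 and T12 value. The log2 fold change was 0.07 ± 0.19 (SE, n = 3 libraries per group) in T34 (adjusted p = 0.78) and 0.14 ± 0.19 in T12 (adjusted p = 0.571), and both turned below 0, to -0.09 and -0.02, without WT replicate 1. The T34 value was also below 0 with upper quartile scaling, at -0.05. Without WT replicate 2 the values were larger, at 0.26 in T34 (limma adjusted p = 0.136) and 0.34 in T12 (adjusted p = 0.0719). With library weights they were 0.20 in T34 (adjusted p = 0.191) and 0.28 in T12 (adjusted p = 0.0685).

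MYB29 (AT5G07690, chr5:2446669-2448584, plus strand), which shares 77.4% of aligned coding bases with MYB28, had 34.79, 29.88 and 23.45 normalized counts in T34, 101, 96.83 and 90.85 in T12, and 12.28, 0 and 21.67 in WT. The groups did not overlap, with T12 well above the other 2 and T34 just above WT. The 0 of WT replicate 2 allows up to 35.1 normalized counts there (3 reads; counting error only), which is above every T34 value and below every T12 value. In T12 MYB29 rose by 3.86 ± 0.95 on the log2 scale (14.5-fold, adjusted p = 0.0106), and by 2.48 (5.6-fold, adjusted p = 0.000103) without WT replicate 2 and 4.74 (26.7-fold) without WT replicate 3. On recovered reads edgeR and DESeq2 both gave 2.67 in T12. Its log2 fold change in T34 was 2.16 ± 0.95 and was not called (adjusted p = 0.092). That call depended on the libraries and the setting. It was called at a smaller 0.79 (adjusted p = 0.0304) without WT replicate 2, at 3.04 (adjusted p = 0.0275) without WT replicate 3, and at 1.03 (adjusted p = 0.04) with a pseudocount of 10. On recovered reads it was called too, at 0.96 in edgeR (adjusted p = 0.0327) and 0.97 in DESeq2 (adjusted p = 0.0267). The authors' deposited table gives it a log2 fold change of 0.99 in T34 with an adjusted p of 0.0701.

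Both chain elongation genes rose in both populations. BCAT4 (AT3G19710, chr3:6846969-6849582, minus strand), the aminotransferase that takes methionine into the pathway, had 752.8, 700 and 631.3 normalized counts in T34, 1108, 1179 and 1028 in T12, and 156, 233.7 and 77.75 in WT. The 3 groups stood apart from each other, WT lowest and T12 highest. The log2 fold change was 2.28 ± 0.32 in T34 (4.86-fold, adjusted p = 0.000435) and 2.95 ± 0.32 in T12 (7.74-fold, adjusted p = 0.000118). Its exons lie on the opposite strand from AT3G19700, which it overlaps by 307 bases. Reads in that stretch are of uncertain origin, since the strand setting of the counting is not given in the sources used here.

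MAM1 (AT5G23010, chr5:7703041-7706973, plus strand), a methylthioalkylmalate synthase, which condenses the chain with an acetyl group, had 819.2, 800.1 and 623.8 normalized counts in T34, 828.6, 1109 and 874.9 in T12, and 178.1, 327.2 and 198.8 in WT. Every mutant library lay above every WT library, and the lowest T12 value was only just above the highest T34 value. MAM1 rose by 1.71 ± 0.23 in T34 (3.27-fold, adjusted p = 0.000322) and by 2.03 ± 0.23 in T12 (4.09-fold, adjusted p = 0.000144) on the log2 scale.

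All 5 core genes rose in both populations. CYP79F1 (AT1G16410, chr1:5608682-5612064, plus strand) and CYP79F2 (AT1G16400, chr1:5605044-5607498, plus strand) lie next to each other and code for cytochrome P450 enzymes that turn elongated methionines into aldoximes. CYP79F1 had 191.4, 249.5 and 168.3 normalized counts in T34, 410.9, 604.7 and 428.5 in T12, and 90.9, 93.5 and 63.73 in WT. The groups did not overlap, and T34 lay between WT and T12. The log2 fold change was 1.29 ± 0.22 in T34 (2.44-fold, adjusted p = 0.00136) and 2.52 ± 0.22 in T12 (5.75-fold, adjusted p = 3.48e-05). CYP79F2 had 385.9, 346.6 and 377.6 normalized counts in T34, 400.6, 561.7 and 498 in T12, and 58.96, 70.12 and 43.33 in WT. Here too the groups did not overlap, with WT far below both mutant groups. The log2 fold change was 2.69 ± 0.19 in T34 (6.46-fold, adjusted p = 9.28e-06) and 3.07 ± 0.19 in T12 (8.42-fold, adjusted p = 5.8e-06).

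The coding sequences of CYP79F1 and CYP79F2 are 91.4% identical, so the split of reads between them depends on the places where they differ. Of the 50-base windows of each gene's exons, 2% in CYP79F1 and 2.74% in CYP79F2 were found in the other gene, and 1 window of 100 bases was. How the authors' counting treated reads that match both is not given in the sources used here. The ungapped stretch of 90 aligned coding bases with the most differences, 20, is shown. Untranslated exon sequence and stretches with gaps were not searched for such differences. Positions count from 1 at the first coding base (TAIR10.1, RefSeq), and capitals mark the differing bases.
CYP79F1, coding bases 719 to 808: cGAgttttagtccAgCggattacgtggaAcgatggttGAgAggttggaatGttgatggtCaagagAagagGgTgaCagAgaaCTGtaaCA
CYP79F2, coding bases 716 to 805: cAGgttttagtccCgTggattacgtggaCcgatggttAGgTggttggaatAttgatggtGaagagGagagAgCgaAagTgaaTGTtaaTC

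CYP83A1 (AT4G13770, chr4:7990429-7992429, minus strand), the P450 enzyme that oxidises the aldoximes, had 707.7, 855.4 and 634.7 normalized counts in T34, 860, 1167 and 1070 in T12, and 151.1, 198.7 and 159.3 in WT. The WT libraries lay far below both mutant groups, and the lowest T12 value was just above the highest T34 value. The log2 fold change was 2.10 ± 0.16 in T34 (4.3-fold, adjusted p = 1.55e-05) and 2.60 ± 0.16 in T12 (6.05-fold, adjusted p = 6.48e-06).

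SOT17 (AT1G18590, chr1:6398531-6400029, plus strand), a sulfotransferase of the last core step, had 633.4, 513.2 and 445.5 normalized counts in T34, 745.3, 520.7 and 528.8 in T12, and 86.6, 58.44 and 59.9 in WT. The mutant groups overlapped each other and both stood far above WT. It rose by 2.95 ± 0.21 in T34 (7.72-fold, adjusted p = 9.66e-06) and by 3.12 ± 0.21 in T12 (8.66-fold, adjusted p = 9.14e-06) on the log2 scale. SOT18 (AT1G74090, chr1:27862814-27864193, plus strand), which carries out the same step and shares 78.2% of aligned coding bases with SOT17, had 499.8, 462.4 and 477.3 normalized counts in T34, 503.9, 594.4 and 564.7 in T12, and 224.2, 338.9 and 219.2 in WT. Both mutant groups again stood apart from WT, and per kilobase of exon the mean WT level was 189 for SOT18 and 45.57 for SOT17. The log2 fold change of SOT18 was 0.91 ± 0.17 in T34 (1.87-fold, adjusted p = 0.00193) and 1.11 ± 0.17 in T12 (2.16-fold, adjusted p = 0.000749). It overlaps AT1G74088 on the same strand by 9 bases.

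FMOGS-OX1 (AT1G65860, chr1:24498954-24502776, minus strand), which oxidises methylthioalkyl to methylsulfinylalkyl side chains, had 276, 246.5 and 185 normalized counts in T34, 284.2, 350.1 and 290.5 in T12, and 24.57, 0 and 14.02 in WT. All 6 mutant libraries lay far above the WT libraries, whose counts rest on 40, 0 and 11 reads. The 0 of WT replicate 2 allows up to 35.1 normalized counts, still below the lowest mutant value of 185. FMOGS-OX1 rose by 5.01 ± 0.98 in T34 (32.1-fold, adjusted p = 0.00277) and by 5.40 ± 0.98 in T12 (42.4-fold, adjusted p = 0.00213) on the log2 scale. That size leaned on single WT libraries. Without WT replicate 2 it was 11.9-fold in T34 and 15.7-fold in T12, and without WT replicate 1 it was 60.3-fold in T34 and 79.4-fold in T12. On recovered reads the log2 fold change was 3.60 in T34 and 3.98 in T12 in edgeR, and 3.65 in T34 and 4.03 in T12 in DESeq2. The authors' deposited table gives log2 fold changes of 3.67 in T34 and 4.08 in T12.

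**Figure D2:**
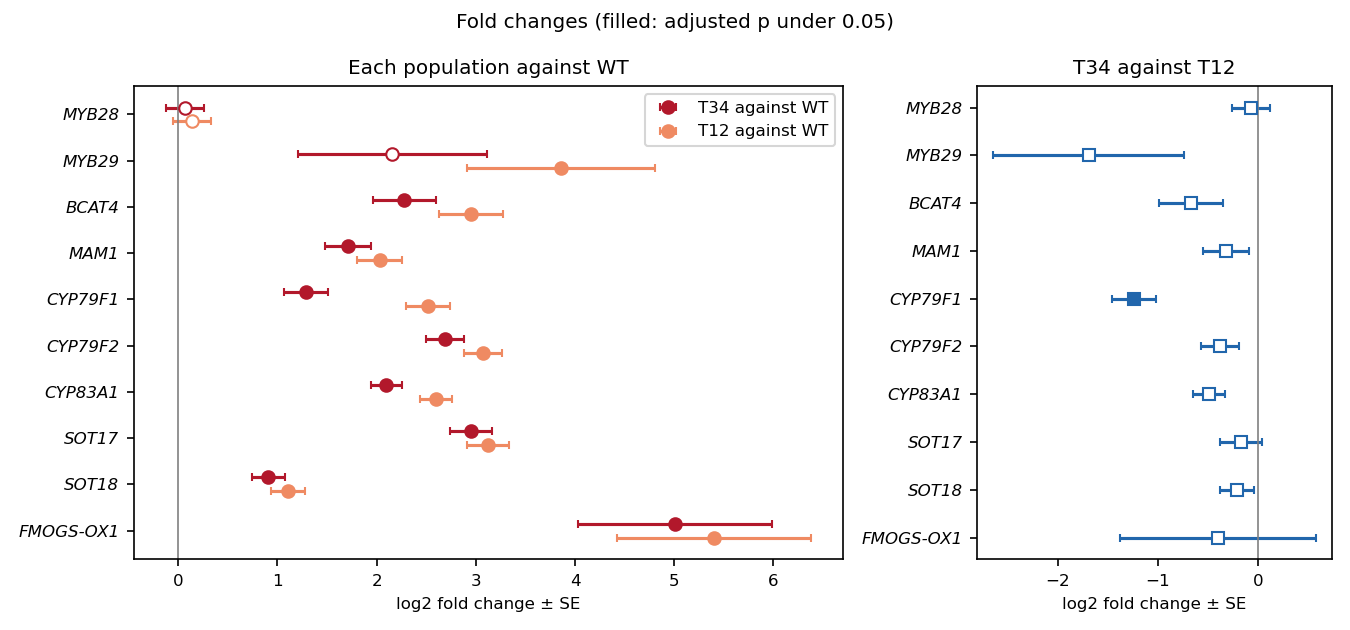
Log2 fold change and SE (horizontal axes) of the 10 genes for T34 and T12 against WT (left) and for T34 against T12 (right), with filled symbols for an adjusted p under 0.05. Against WT the values run from 0.07 for MYB28 in T34 to 5.40 for FMOGS-OX1 in T12, and against T12 only CYP79F1 is filled, at -1.24.

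Per kilobase of exon, the mean normalized count in T34 was 478.8 for BCAT4, 383.8 for CYP83A1, 364.6 for MAM1, 354 for SOT17, 347.7 for SOT18, 183.4 for CYP79F2, 136 for FMOGS-OX1, 99.35 for MYB28, 62.06 for CYP79F1 and 16.97 for MYB29. In T12 it was 761.5 for BCAT4, 540.8 for CYP83A1 and 457 for MAM1 at the top, and 104.8 for MYB28 and 55.59 for MYB29 at the bottom. In WT the order was another one, with SOT18 (189), MAM1 (114.4), BCAT4 (107.4) and MYB28 (96.53) above CYP83A1 (88.89), and with FMOGS-OX1 (7.418) and MYB29 (6.538) lowest. Thus the mean level of MYB28 exceeded those of CYP79F1, CYP79F2, CYP83A1 and SOT17 in WT. In T34 and T12 it was below those of CYP79F2, CYP83A1 and SOT17. The WT means include WT replicate 2, with 21 reads for MYB28 and 17 for CYP83A1. In WT replicate 1, MYB28 had 149.2 normalized counts over 1979 bases and CYP83A1 151.1 over 1909, so CYP83A1 stood higher there. Exon length is the union over all annotated transcripts, at 3272 bases for CYP79F1 and 2018 for CYP79F2. Their coding sequences have 1617 and 1614 bases, so the level of CYP79F1 against other genes depends on the length used. These orders compare means across genes and carry no test.

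T34 was next compared with T12, the populations that the design text describes as of increasing severity. In T34, 1 of the 10 genes fell against T12 and none rose, where 1.52% of all tested genes were called lower and 0.858% higher. The 10 log2 fold changes ranged from -1.69 to -0.07 with a median of -0.39, and the median of all tested genes was 0.00. Every T34 library lay below every T12 library for 8 of the 10 genes, the exceptions being MYB28 and SOT17 (15.8% of all tested genes lay so).

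The gene that fell was CYP79F1, with 168.3 to 249.5 normalized counts in T34 and 410.9 to 604.7 in T12. The log2 difference was -1.24 ± 0.22 (adjusted p = 0.029), 2.36-fold lower in T34. The call was lost when any 1 of the 6 T34 and T12 libraries was left out (log2 -1.40 to -1.06, adjusted p = 0.0685 to 0.125) and also without the libraries of conflicting labels (-1.11, adjusted p = 0.107). It was kept in edgeR (adjusted p = 0.00727), in DESeq2 (1.18e-05) and in limma with the T34 and T12 libraries alone (0.0122). MYB29 had the larger difference, -1.69 ± 0.95, which was not called (adjusted p = 0.471) while WT replicate 2, with no MYB29 read, entered the shared estimate of the spread. Without that library it was called at -1.69 (adjusted p = 0.00513), and so it was with the T34 and T12 libraries alone (adjusted p = 0.00294), in edgeR (-1.71, adjusted p = 0.00466) and in DESeq2 (-1.71, adjusted p = 2.65e-07). For the others the log2 differences were -0.67 for BCAT4 (adjusted p = 0.373), -0.49 for CYP83A1 (0.182), -0.38 for CYP79F2 (0.395) and -0.32 for MAM1 (0.591), and -0.40 or nearer to 0 for the rest. Some of these were called under other settings. BCAT4 was called with the T34 and T12 libraries alone (-0.67, adjusted p = 0.00726), and library weights called BCAT4 (-0.73, adjusted p = 0.00468), CYP79F2 (-0.57, 0.00352), CYP83A1 (-0.55, 0.00422), MAM1 (-0.46, 0.0125) and SOT18 (-0.30, 0.00949), besides CYP79F1 and MYB29. A p that misses the threshold does not show that these levels were alike.

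Ratios within pairs of related genes do not depend on the size factor of a library. These ratios, of reads per kilobase of exon, were chosen after the values had been seen. CYP79F1 to CYP79F2 stood at 0.306, 0.444 and 0.275 in T34, 0.633, 0.664 and 0.531 in T12, and 0.951, 0.822 and 0.907 in WT. The groups did not overlap, with T34 lowest and WT highest, although the WT replicate 2 ratio rests on 8 and 6 reads (95% interval 0.25 to 2.88, counting error only). The mean was 0.342 ± 0.09 in T34, 0.609 ± 0.0697 in T12 and 0.893 ± 0.0653 in WT (SD, n = 3 each), and each of the 3 comparisons gave p = 0.1 in a two-sided exact permutation test, the smallest p that 3 against 3 libraries allow. In these libraries CYP79F1 made up less of the pair in the mutants than in WT, and less in T34 than in T12, in a design where no p under 0.05 is within reach. The exon lengths of 3272 and 2018 bases enter as constants and do not alter the comparison of groups. The size of the ratio within a library does depend on them.

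SOT17 to SOT18 was 1.17, 1.02 and 0.859 in T34, 1.36, 0.806 and 0.862 in T12, and 0.356, 0.159 and 0.252 in WT. Both mutant groups lay above WT (exact permutation p = 0.1 each, n = 3 per group) and overlapped each other (exact permutation p = 1). MAM3 codes for a relative of MAM1 that makes short and long chains, and MAM1 to MAM3 was 0.652, 0.767 and 0.481 in T34, 0.64, 0.657 and 0.586 in T12, and 0.976, 1.66 and 1.43 in WT. Here both mutant groups lay below WT (exact permutation p = 0.1 each) and overlapped each other (exact permutation p = 0.9). MYB29 to MYB28 was 0.219, 0.171 and 0.129 in T34, 0.634, 0.533 and 0.447 in T12, and 0.0941, 0 and 0.139 in WT. T12 stood above both other groups (exact permutation p = 0.1 each), and T34 overlapped WT (exact permutation p = 0.2). The ratios of WT replicate 2 rest on few reads and have wide 95% intervals (counting error only). These were 0.048 to 0.415 for SOT17 to SOT18, 0.859 to 3.35 for MAM1 to MAM3 and 0 to 0.22 for MYB29 to MYB28. Over these 12 tests, 3 for each of 4 pairs, a p of 0.1 has a Benjamini-Hochberg adjusted value of 0.133, and none of them could pass 0.05.

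**Figure D3:**
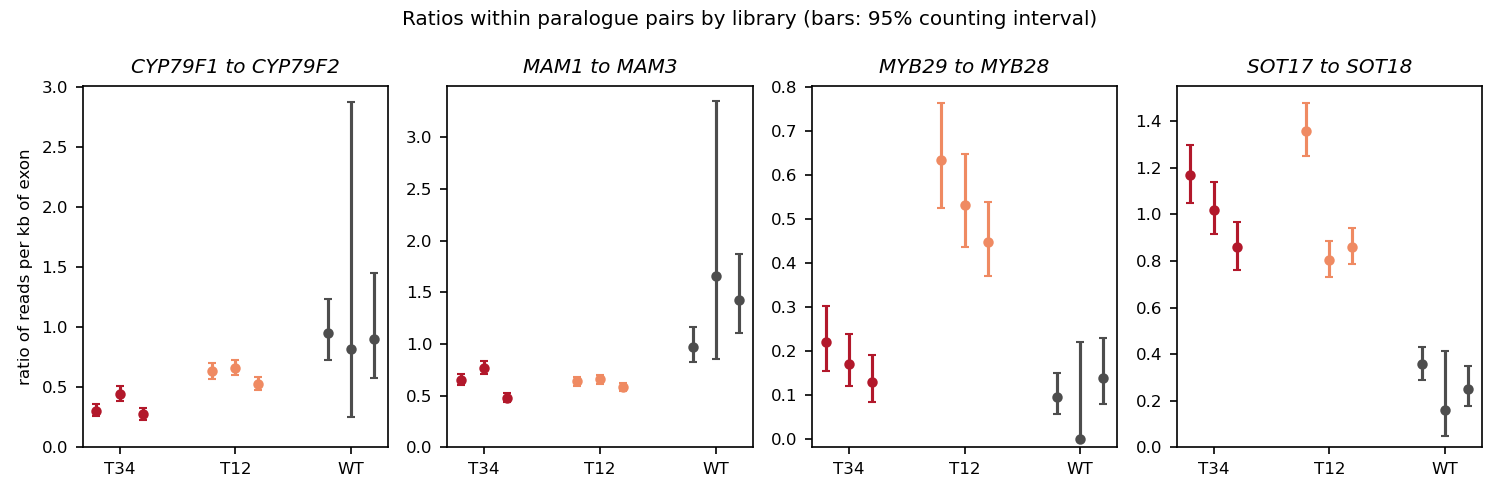
Ratio of reads per kilobase of exon within 4 pairs of related genes (vertical axes, each with its own range) in the T34, T12 and WT libraries, with 95% counting intervals as bars. CYP79F1 to CYP79F2 averages 0.342 in T34, 0.609 in T12 and 0.893 in WT, while SOT17 to SOT18 is near 1 in both mutant groups and 0.255 on average in WT.

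The sequence before the annotated start of each gene was searched for a pair of motifs on both strands, because the MYC partners of the MYB regulators bind the G-box (CACGTG) and R2R3 MYB proteins bind AC elements (searched as ACCNANC). In the 250 bases upstream of the start, the G-box occurred in 1 of the 10 genes, CYP83A1, and in 6.49% of 27443 Arabidopsis genes. The AC element occurred in 4 of the 10, CYP79F2, CYP83A1, SOT17 and FMOGS-OX1, and in 27.8% of genes. These 4 upstream stretches are shown, with that of CYP79F1 for contrast with its neighbour CYP79F2, 5′ to 3′ along the gene's strand (TAIR10.1, RefSeq; capitals mark the motifs, which in CYP83A1 include a pair of overlapping AC elements). A match describes letters and shows no binding, and the absence of a match says only that these letters are not in the window.
CYP79F1, chr1:5608432-5608681, plus strand: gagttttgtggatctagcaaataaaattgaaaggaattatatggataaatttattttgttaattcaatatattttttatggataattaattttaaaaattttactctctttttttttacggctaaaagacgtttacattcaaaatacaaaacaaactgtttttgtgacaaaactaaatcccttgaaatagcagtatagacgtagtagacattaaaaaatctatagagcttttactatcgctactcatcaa
CYP79F2, chr1:5604794-5605043, plus strand: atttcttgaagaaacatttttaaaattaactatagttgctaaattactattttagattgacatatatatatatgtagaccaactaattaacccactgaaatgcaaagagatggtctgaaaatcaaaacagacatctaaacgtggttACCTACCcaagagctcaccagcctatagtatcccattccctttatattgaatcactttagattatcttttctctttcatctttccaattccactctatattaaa
CYP83A1, chr4:7992430-7992679, minus strand: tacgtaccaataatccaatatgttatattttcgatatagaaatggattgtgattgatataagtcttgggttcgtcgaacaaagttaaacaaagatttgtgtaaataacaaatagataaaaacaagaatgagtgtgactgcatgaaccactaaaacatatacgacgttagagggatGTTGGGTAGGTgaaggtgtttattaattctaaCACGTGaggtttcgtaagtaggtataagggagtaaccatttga
SOT17, chr1:6398281-6398530, plus strand: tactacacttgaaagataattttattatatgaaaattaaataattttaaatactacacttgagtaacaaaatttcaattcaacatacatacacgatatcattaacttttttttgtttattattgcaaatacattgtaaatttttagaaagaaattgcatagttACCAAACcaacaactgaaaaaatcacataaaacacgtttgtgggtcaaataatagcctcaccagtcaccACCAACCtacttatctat
FMOGS-OX1, chr1:24502777-24503026, minus strand: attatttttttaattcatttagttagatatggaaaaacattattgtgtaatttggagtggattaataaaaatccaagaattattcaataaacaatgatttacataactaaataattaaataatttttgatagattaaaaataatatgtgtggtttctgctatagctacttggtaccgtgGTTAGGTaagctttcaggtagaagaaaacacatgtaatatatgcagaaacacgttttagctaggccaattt

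Most other genes of the pathway rose as well. Of 30 listed, 27 were in the tables (the other 3 are not analysed here) and 25 passed the filter. In T34, 22 of the 25 rose, 1 fell and 2 were not called against WT, and in T12 the counts were again 22, 1 and 2. The shares called among all tested genes were 25.2% higher and 20.0% lower in T34, and 23.1% higher and 17.0% lower in T12. The same shares apply to the counts by step given below. The median log2 fold change was 2.01 in T34 and 2.19 in T12, and none of the 25 was called between T34 and T12 (median -0.17). In that comparison only 0.858% of all tested genes were called higher and 1.52% lower, so the absence of calls says little about these genes.

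Among regulators, MYC4, a bHLH partner of the MYB proteins, rose by 0.53 ± 0.14 in T34 (adjusted p = 0.0111) and 0.67 ± 0.14 in T12 (adjusted p = 0.00404) on the log2 scale. MYC3, a further such partner, fell by 0.57 in T34 (adjusted p = 0.0277) and by 0.61 in T12 (adjusted p = 0.0228), with 500.5 to 580.4 normalized counts in T34, 526.1 to 530.9 in T12, and 678.1, 1122 and 695.9 in WT. The MYC pair thus moved in opposite directions. MYB76, the close relative of MYB29 and its neighbour on the chromosome, did not pass the filter, with 3.163, 5.23 and 2.512 normalized counts in T34, 10.84, 10.9 and 7.851 in T12, and 3.685, 0 and 5.098 in WT.

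Of 8 other chain elongation genes 7 rose in each population. MAM3 (AT5G23020) had 1121, 930.9 and 1156 normalized counts in T34, 1154, 1504 and 1332 in T12, and 162.8, 175.3 and 123.6 in WT, a rise of 2.80 ± 0.16 in T34 (adjusted p = 3.51e-06) and 3.11 ± 0.16 in T12 (adjusted p = 2.53e-06) on the log2 scale. The log2 fold changes of MAM1 were 1.71 in T34 and 2.03 in T12, and the difference between the pair could not pass a test at 0.05 in the ratios given above. IPMDH1, a dehydrogenase of the elongation cycle, rose by 2.56 in T34 and 3.02 in T12, and BAT5, the plastid transporter of the keto acids, by 2.12 in T34 and 2.50 in T12. The listed subunits of the isomerase rose. These were the small subunits IPMI-SSU3 (log2 2.52 in T34, 2.81 in T12) and IPMI-SSU2 (2.04 in T34, 2.16 in T12). The large subunit IPMI-LSU1 (0.71 in T34, 0.74 in T12), which leucine synthesis uses too, was the other. Differences between subunits were not tested. BCAT3, an aminotransferase at the end of elongation, rose by 1.01 in T34 and 1.24 in T12. IPMDH3, a dehydrogenase of leucine synthesis, was not called, at 0.19 in T34 and 0.23 in T12.

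All 5 other core genes tested rose in each population. They were GGP1, which trims the glutathione conjugate (log2 fold change 2.95 in T34, 3.43 in T12), the glucosyltransferases UGT74B1 (2.38 in T34, 2.55 in T12) and UGT74C1 (2.21 in T34, 2.59 in T12), the glutathione transferase GSTU20 (1.86 in T34, 2.19 in T12) and the lyase SUR1 (1.74 in T34, 1.93 in T12). SUR1, UGT74B1 and GGP1 serve indole glucosinolates as well.

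Of 6 other side chain genes tested, 5 rose in each population. FMOGS-OX2 (3.12 in T34, 2.69 in T12) and FMOGS-OX3 (3.13 in T34, 3.15 in T12) had the larger log2 fold changes, and FMOGS-OX4 (1.11 in T34, 1.06 in T12), GSL-OH (0.68 in T34, 0.93 in T12) and FMOGS-OX5 (0.55 in T34, 0.60 in T12) the smaller ones. Of the 50-base windows of FMOGS-OX1, 0.237% were found unchanged in FMOGS-OX2. Windows that match with a few differing bases were not counted, so the share of reads open to confusion was not measured. Sequence shared among the other FMOGS-OX genes was not measured. AOP3 was not called in either comparison and its sign differed (0.81 in T34, -1.23 in T12). BZO1 did not pass the filter.

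Genes of transport and of sulfate supply rose too. The transporters GTR1 and GTR2, which load glucosinolates into the phloem, both rose, GTR1 by 3.41 in T34 and 3.70 in T12 and GTR2 by 1.06 in T34 and 1.19 in T12. So did the kinases that make the sulfate donor, APK1 by 2.01 in T34 and 2.38 in T12 and APK2 by 2.91 in T34 and 3.02 in T12.

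**Figure D4:**
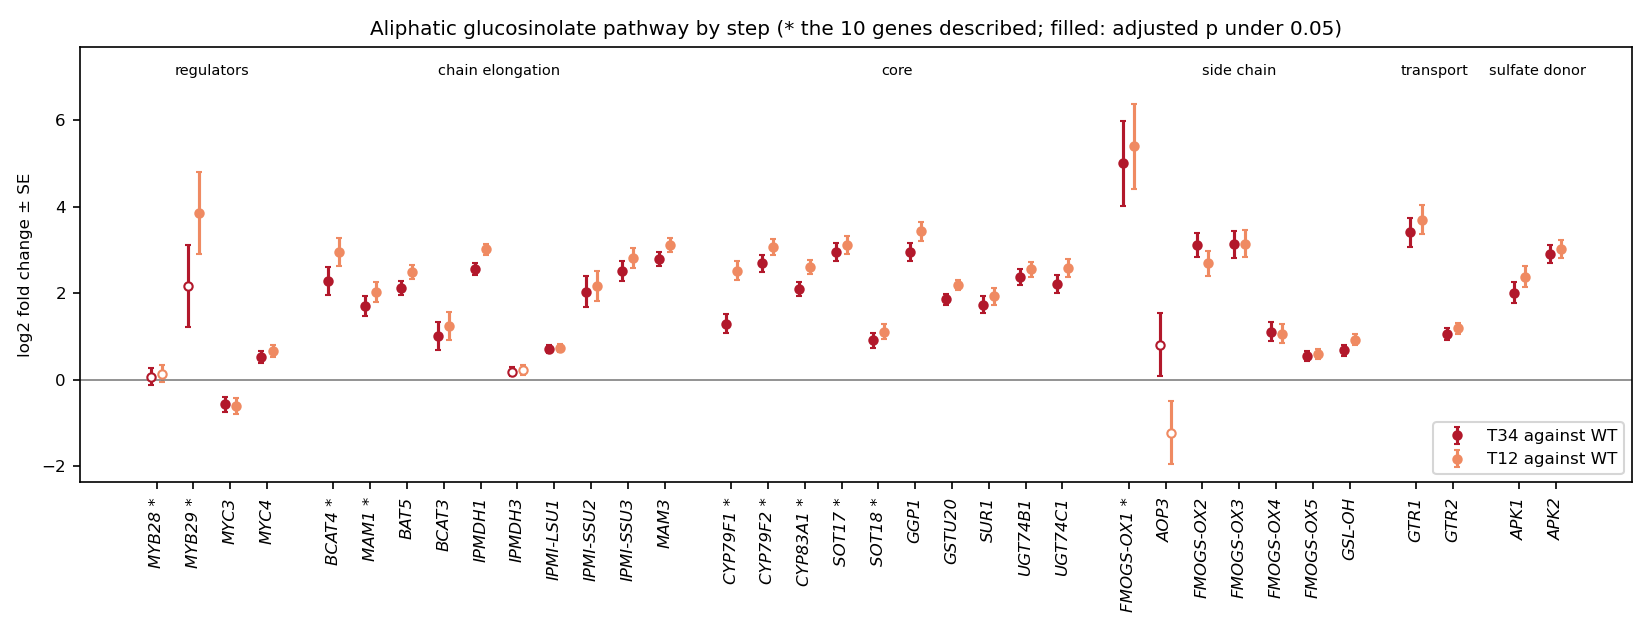
Log2 fold change and SE (vertical axis) against WT for T34 and T12, for the 10 genes (starred) and the 25 other tested genes of the pathway, grouped by step. Filled symbols have an adjusted p under 0.05, and MYC3 (-0.57 in T34, -0.61 in T12) is the only filled point below 0.

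Of 7 genes of indole glucosinolate synthesis, the branch that starts from tryptophan, 6 rose in each population. Their median log2 fold change was 2.14 in T34 and 2.25 in T12. Among all tested genes, 25.2% were called higher in T34 and 23.1% in T12. The aldoxime-forming P450 genes CYP79B2 (2.68 in T34, 2.58 in T12) and CYP79B3 (2.14 in T34, 2.47 in T12), CYP83B1 (2.17 in T34, 2.25 in T12), the sulfotransferase gene SOT16 (2.41 in T34, 2.62 in T12) and the regulator MYB34 (1.89 in T34, 2.17 in T12) rose in both. The regulator MYB51 was called in T34 (1.17, limma adjusted p = 0.0159) and not in T12 (0.65, adjusted p = 0.136). MYB122 was called in T12 (1.36, limma adjusted p = 0.0472) and not in T34 (0.73, adjusted p = 0.24). Neither was called between T34 and T12 (adjusted p = 0.532 for MYB51 and 0.631 for MYB122). MYB122 had 40, 3 and 6 reads in WT replicates 1, 2 and 3, and passed the filter on low values through the mutant libraries. Its call in T12, counted among the 6 there, thus rests on few WT reads. Genes of the indole branch therefore rose alongside the aliphatic ones.

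The 10 genes followed their common profile to different degrees. Over the 9 libraries, which share the 3 groups, Pearson's r with the mean of the standardised log2 values was 0.997 for CYP83A1, 0.991 for CYP79F2, 0.945 to 0.980 for MAM1, BCAT4, SOT18, SOT17 and CYP79F1, 0.849 for FMOGS-OX1, 0.732 for MYB29 and 0.353 for MYB28. Each gene is itself part of that mean. Over the 6 T34 and T12 libraries alone, r with the mean of the other genes was another one for some, at 0.153 for SOT17, 0.183 for MYB28 and 0.920 for MYB29, and 0.860 to 0.953 for the remaining 7 genes. The genes outside the lists whose pattern was most like it were AK3 (AT3G02020), an aspartate kinase, with r = 0.9958, cPT4 (AT5G58770) with 0.9906, AT2G42975 with 0.99, the receptor-like kinase gene SRF7 (AT3G14350) with 0.9895 and the ABC transporter gene ABCB26 (AT1G70610) with 0.9894. AK3 had 462.6, 500.5 and 408.6 normalized counts in T34, 559.2, 695.1 and 683.1 in T12, and 70.02, 81.81 and 56.08 in WT. These correlations are descriptions over libraries that fall into 3 groups, and carry no test.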

How the data were processed

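The submitters' processing notes name DESeq2 1.22.2, featureCounts 1.6.2, HISAT2 2.1.0 and cutadapt 1.8.1, and the build TAIR10. Not given in the sources used here are the gene annotation, whether strand was used in counting, and where reads with several matches went. The authors deposited 2 tables, T34 against WT and T12 against WT. Each table, per the file headers, has a normalized count per library (a signal, the count divided by a size factor), a log2 fold change and an adjusted p-value. At a tolerance of 0.01, 100% of the deposited values were whole multiples of 1 read, so reads were recovered. The WT values were the same in both tables.

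Planned for normalized values, limma-trend (limma 3.58.1, R 4.3.3) was fitted to log2(normalized count + 1) of all 9 libraries, with genes of at least 10 in at least 3 libraries tested (20871) and Benjamini-Hochberg adjustment. Fold changes are on the log2(normalized count + 1) scale. For MYB29 and FMOGS-OX1, which have a 0 in WT replicate 2, this scale gave larger fold changes against WT than the count tests. The count tests edgeR 4.0.16 and DESeq2 1.42.0 were run on recovered reads, as planned, and called 10386 and 9717 genes in T34 against WT, 9513 and 8915 in T12 against WT, and 1369 and 1625 in T34 against T12. Further alternatives were TMM and upper quartile scaling, a pseudocount of 10, other filters, 2 groups only, library weights and leaving out each library. Leaving out both libraries of conflicting labels, and WT replicate 2 from T34 against T12, were added after seeing the data. The procedure was tested on simulated data. Replicate libraries differed by more than sampling noise (chi-square per degree of freedom 5.19 to 29.8).

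The 10 genes, the pathway, indole and marker lists and the tests were chosen with earlier results of these data known. All 10 genes are named; other listed genes where they pass the test or are close relatives; and the 5 tested nuclear genes with the highest Pearson correlation with the mean profile. Positions, names and sequences come from RefSeq's annotation of TAIR10.1, in which 29991 of 30271 loci were found. The deposited tables hold no coordinates. Intervals and limits for counts of 0 cover counting error only.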

Additional observations from a re-analysis of the deposited data

Results flagged for a closer look

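CYP79F1 was singled out because its response differed between the mutant populations in a direct test. Its log2 difference of T34 from T12 was -1.24 (limma adjusted p = 0.029), with log2 fold changes against WT of 1.29 in T34 and 2.52 in T12, and all 3 T34 libraries lay below all 3 T12 libraries. The call was lost when any 1 of those 6 libraries was left out, and without the libraries of conflicting labels (adjusted p = 0.107). It was kept in edgeR (adjusted p = 0.00727), in DESeq2 (1.18e-05) and in limma with the T34 and T12 libraries alone (0.0122).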

How the results depend on the processing

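The 10 genes' 490 values under alternatives kept direction and side of the threshold in 460 cases. The count of the 10 called was 9 in T12 against WT under every alternative run, and 8 or 9 in T34 against WT. Between T34 and T12 it was 1, and became 2 in edgeR, 2 in DESeq2, 3 with those 2 groups alone (MYB29, BCAT4 and CYP79F1), 7 with library weights (all but MYB28, SOT17 and FMOGS-OX1), 0 without the libraries of conflicting labels, and 0 to 2 when 1 library was left out. The genes called among all tested in that comparison were 497, against 1369 in edgeR, 1625 in DESeq2, 2144 with 2 groups alone, 6297 with library weights, 162 without the libraries of conflicting labels, and 14 to 1898 when 1 library was left out. These alternatives change the test, the libraries or the shared spread, and the cause was not tested. In the alternatives run, signs changed for MYB28 and SOT17 only. For MYB28 this was T34 against WT (-0.05 with upper quartile scaling, -0.14 without the libraries of conflicting labels, -0.09 to 0.26 when 1 library was left out), T12 against WT (-0.02 without the libraries of conflicting labels, -0.02 to 0.34 when 1 was left out) and T34 against T12 (-0.16 to 0.01 when 1 was left out). For SOT17 it was T34 against T12 (-0.30 to 0.00 when 1 was left out). Upper quartile scaling moved the median log2 fold change of all tested genes to -0.06 in T34 and -0.05 in T12 against WT, where it had been 0.06. No paired analysis was possible because the labels give the libraries no shared replicate numbers. Depth limits all 10 genes in WT replicate 2, from 0 reads for MYB29 and FMOGS-OX1 to 29 reads for SOT18. There 3 reads equal 35.1 normalized counts.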
